A study of Homo sapiens with 12 samples.

Results

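Trimethylation of lysine 27 on histone H3 (H3K27me3) was mapped by CUT&Tag in HepG2/C3A cells, a hepatocellular carcinoma line, after 48 hours with 10 mM sodium succinate (2 libraries) or as control (2 libraries). These are 4 of the 12 samples of the series. The labels call them biological replicates, and the control cells received vehicle. CUT&Tag uses an antibody to bring a transposase to chromatin and sequences the fragments that it releases. The other samples were made with an antibody to succinylated lysine (Ksu, 4 libraries) or with IgG (4 samples, not used here). Both treatments were given to a single cell line, so every value below describes this line.

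H3K27me3 is written by Polycomb repressive complex 2 (PRC2), whose catalytic subunit is EZH2 or EZH1, and is removed by the Jumonji-domain enzymes KDM6A and KDM6B. These demethylases use 2-oxoglutarate as a co-substrate and release succinate, and succinate in excess can inhibit enzymes of this class. In differentiated cells the mark lies in broad domains over genes of other lineages, such as the HOX clusters, and is absent from strongly transcribed genes.

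Peaks had been called separately for every library. On the 24 chromosomes the control lists held 19133 and 5813 peaks, against 9985 and 5531 for succinate. The 5531 peaks with the highest total signal were therefore taken from each library. Read depth is unknown, and the signal was scaled differently between libraries. In steps of each library's own signal, the last peak taken stood at 214650 and 221210 (control) and at 272270 and 330250 (succinate). The first peak left out stood at 214616, 221110 and 272198, and the second succinate list was used whole. The cut thus ran through peaks of nearly equal signal in 3 libraries. Total cover was 118 and 114 Mb for control, 136 and 140 Mb for succinate.

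The first question was where the added cover lay. Bases under peaks of both succinate libraries and of neither control library, called gained, came to 12.6 Mb. Bases under peaks of both control libraries and of neither succinate library, called lost, came to 2.68 Mb. For comparison, bases shared only by the libraries numbered 1 came to 4.25 Mb, those shared only by the libraries numbered 2 to 3.38 Mb, and those under peaks of all 4 libraries to 85.4 Mb. Of the gained bases, 41.2% lay in merged regions without a peak of either control library, and the rest adjoined control peaks. Protein-coding gene bodies held 40.3% of the gained bases and 51.7% of the bases covered in all 4 libraries, where they take up 40.9% of the chromosomes. Gained bases thus lay between genes more often than the shared ones did, in these libraries. When each library was cut to the same covered length instead of the same number of peaks, 7.09 Mb were gained and 7.98 Mb lost.

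Gene bodies were compared next, as the percent of each of 20037 protein-coding gene bodies under peaks. A gene body is called gained where the lower succinate library lay at least 10 percentage points above the higher control library, and lost in the opposite case. Of 3454 gene bodies with cover in any library, 425 were gained (12.3%) and 48 were lost (1.39%), while 2981 met neither rule and 522 were covered over their whole length in all 4 libraries. Only 2425 had at least 10 points of room above the higher control library, and 17.5% of these were gained. Of 2020 with at least 10% in both control libraries, 2.38% were lost. The median difference over the covered gene bodies was 2.29 percentage points. At equal covered length the counts were 238 gained and 178 lost and the median difference was 0. With all peaks of each list they were 227 and 51. With 2 libraries a side no exact permutation test can give a p below 0.33, so these are counts of libraries that do not overlap. A limma fit across 2874 gene bodies called 167 higher (5.81%) and 20 lower (0.696%) in succinate at an adjusted p under 0.05. Of these 187, 64 had the same value in both replicates of each treatment, so many of the calls rest on no measured spread. With the replicate number as a block limma called none in either direction, where an unadjusted p under 0.05 was reached by 309 higher and 51 lower.

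Gained gene bodies were of 2 kinds. In 196 of the 425, neither control library had any cover among the peaks taken, and in 52 of these the cover went from none to the whole gene body in both succinate libraries. The other 229 had some cover in control that reached further in succinate. Many of these had a control peak of lower rank. Of the 196, 172 were overlapped by a weaker peak in the full list of control replicate 1 and 26 in the shorter full list of control replicate 2. Of the 48 lost gene bodies, 30 had no cover in either succinate library, and 6 went from the whole gene body to none.

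The gene body that added the most covered bases was GSE1, followed by MEGF11. GSE1, a chromatin-associated coiled-coil protein (chromosome 16, 85169512 to 85676200), had 2.81% and 4.55% of its 507 kb covered in control and 24% and 23.8% in succinate. The lower succinate library exceeded the higher control library by 97.7 kb, and limma gave a difference with an adjusted p of 0.037. SHANK1, a scaffold protein of excitatory synapses (chromosome 19, 50659255 to 50719802), had 41.7% and 41.4% in control and 87.9% and 88.9% in succinate (limma adjusted p = 0.018). GRAP2, an adaptor of T cell receptor signalling (chromosome 22, 39893820 to 39973721), had 10.1% and 14.1% against 52.4% and 47.8% (limma adjusted p = 0.045). In these genes the replicates lay within 5 percentage points of each other and far from the other treatment. Peaks were also chosen in 6 other ways (all peaks, 2765 per library, equal covered length, ranking by highest signal, a common floor, equal numbers within each chromosome), and GSE1, SHANK1 and GRAP2 stayed gained in each of the 6. Of all 54 genes chosen for naming, 14 kept their call in each, and 25 kept it in 3 or fewer.

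TRPM2, a calcium-permeable cation channel opened by ADP-ribose (chromosome 21, 44350141 to 44442644), had no cover in control and 37.9% and 51.7% in succinate. CACNG2, an auxiliary subunit of AMPA receptors, had 29.0% and 38.9% against 60.3% and 64.3% with succinate. The succinate libraries were clear of the control libraries in both genes, and the limma adjusted p was 0.098 for TRPM2 and 0.15 for CACNG2, above the threshold. TRPM2 stayed gained in 3 of the 6 other ways of choosing peaks, and its difference was 0 with 2765 peaks, while CACNG2 stayed gained in 4. Cover of HK1, which encodes hexokinase 1 of glycolysis (chromosome 10, 69270000 to 69401882), stood at 59.2% and 55.5% without succinate and at 80.2% and 79.5% with it (limma adjusted p = 0.089). MEGF11, FHAD1, CFAP46, CACNA2D4 and GALNT16 were also among the 12 with the largest gap, each already covered over more than 28% of its body in control. MEGF11 and GALNT16 stayed gained in 3 of the 6 other ways and CACNA2D4 in 2.

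Among the gene bodies that went from none to whole cover, the 5 longest at separate loci were CPNE7, LOC124904077, SYCE3, NTN5 and CCDC154, from 21.5 kb down to 10.2 kb. CPNE7 encodes a calcium-dependent phospholipid-binding protein of the copine family, SYCE3 a protein of the meiotic synaptonemal complex and NTN5 a member of the netrin family. CPNE7 lay in the longest gained stretch of all, 42.7 kb on chromosome 16 from 89574956 to 89617663, which also reached DPEP1. In the full list of control replicate 1, peaks covered 85.1% of CPNE7, 92.6% of NTN5 and 23.8% of SYCE3. In that library their absence thus concerns only the 5531 strongest peaks. The full list of control replicate 2, with 5813 peaks, covered 20.4% of CPNE7 and none of NTN5 or SYCE3. Only CPNE7 stayed gained in each of the 6 other ways of choosing peaks. The limma adjusted p was 0.0028 for each of the 5, the value that these fits give to any change between 0% and 100% without spread.

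Losses were shorter, and several lay on chromosome 5. KCNH6, a voltage-gated potassium channel of the ether-a-go-go family (chromosome 17, 63523358 to 63548992), had 74.8% and 87.0% in control and no cover in succinate (limma adjusted p = 0.027). Its lost stretch of 20.2 kb was the longest of all. KCNIP1, a calcium-binding partner of Kv4 potassium channels (chromosome 5, 170353487 to 170736632), had 39.3% and 35.2% against 24.1% and 22.4% (limma adjusted p = 0.20). KCNMB1, the beta subunit of the large-conductance calcium-activated potassium channel, lies inside the span of KCNIP1 and went from 63.0% and 63.8% to none. TSLP, an epithelial cytokine (chromosome 5, 111070062 to 111078026), had 75% in both control libraries and none in succinate (limma adjusted p = 0.0057). AFAP1L1, an actin-associated protein also on chromosome 5, had 57.4% and 54.9% in control and 16.1% and 6.67% in succinate. SLC6A5, the neuronal glycine transporter, had 27.6% and 34.7% in control and none in succinate, and SEMA4D, a semaphorin, had 57.8% and 77.4% against 40.6% and 21.8%. Most of these losses depended on how peaks were chosen: in the 6 other ways AFAP1L1 stayed lost in each, KCNH6 in 5, KCNMB1, SLC6A5 and SEMA4D in 3, KCNIP1 in 2 and TSLP in 1. The plot of named gene bodies shows no overlap between the treatments in any of them, which the rule itself requires.

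**Figure D1:**
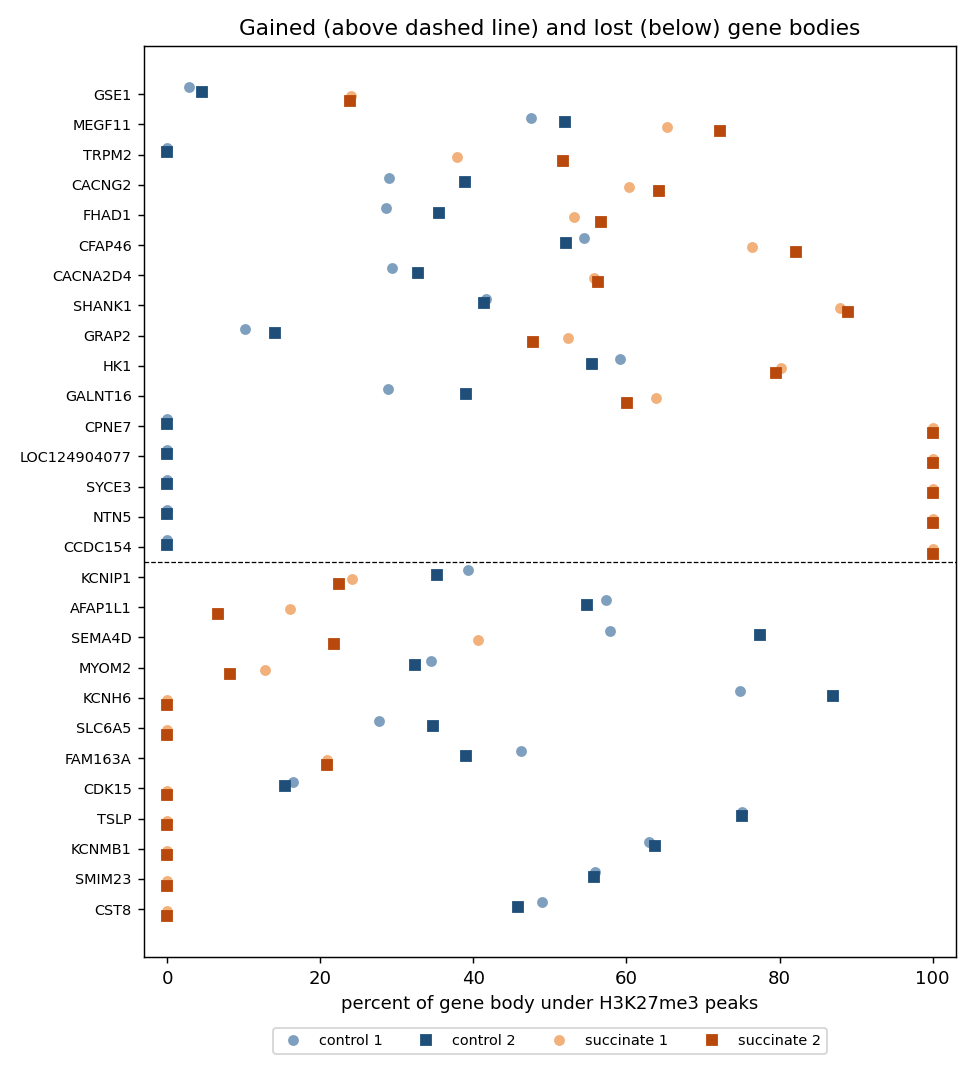
Percent of each gene body under the 5531 strongest H3K27me3 peaks of each library, with 1 point per library, for the gene bodies named by covered bases or by percent. GSE1 rises from 2.81% and 4.55% to 24% and 23.8% at the top, and KCNH6 falls from 74.8% and 87.0% to 0 below the dashed line.

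Promoters were examined as 300-base windows from RefSeq (assembly GRCh38.p14), which run from 250 bases before a transcript start to 50 after it, for 15843 of the protein-coding genes and 22199 windows. A window counted as covered when peaks took up at least 50% of it. There were 1858 and 1838 covered windows in control and 2094 and 2241 in succinate, without overlap. Of 2562 windows covered in any library, 200 (7.81%) were covered in both succinate and neither control library, and 39 (1.52%) in the opposite pattern. At equal covered length the numbers were 107 and 182, with losses the more frequent there. Median GC content was 63.8% in the gained windows, 58.3% in the lost, 65.0% in those covered in all 4 libraries and 62.3% in all windows. The motif CG occurred at least 10 times in 62.0% of the gained, 64.1% of the lost and 70.1% of all windows. It did so in 65.6% of the windows covered in any library and 66.8% of those covered in all 4. The gained windows lay between all windows and those covered in all 4 libraries in GC content.

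Promoters of 3 gained and 3 lost named genes are printed to show the sequence at which cover appeared or disappeared, 5′ to 3′ on the gene's strand with each CG in capitals. They are TRPM2 (chr21:44349891-44350190, plus strand, 35 CG), GRAP2 (chr22:39946567-39946866, plus strand, 2 CG), SYCE3 (chr22:50562870-50563169, minus strand, 24 CG), KCNH6 (chr17:63523108-63523407, plus strand, 33 CG), TSLP (chr5:111073124-111073423, plus strand, 22 CG) and KCNMB1 (chr5:170389318-170389617, minus strand, 6 CG). The first 3 windows were covered over 100% in both succinate libraries and 0% in both control libraries, and the last 3 the other way round. TRPM2 has 3 windows in the table, of which 2 were gained, GRAP2 has 2, of which 1 was gained, and all 3 windows of TSLP were lost.
TRPM2 promoter: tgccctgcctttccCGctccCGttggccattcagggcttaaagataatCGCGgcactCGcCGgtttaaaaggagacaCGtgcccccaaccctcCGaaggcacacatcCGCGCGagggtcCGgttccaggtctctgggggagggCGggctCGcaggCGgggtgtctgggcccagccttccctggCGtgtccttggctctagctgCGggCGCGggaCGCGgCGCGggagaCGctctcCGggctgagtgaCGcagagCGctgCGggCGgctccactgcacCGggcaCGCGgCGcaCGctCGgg
GRAP2 promoter: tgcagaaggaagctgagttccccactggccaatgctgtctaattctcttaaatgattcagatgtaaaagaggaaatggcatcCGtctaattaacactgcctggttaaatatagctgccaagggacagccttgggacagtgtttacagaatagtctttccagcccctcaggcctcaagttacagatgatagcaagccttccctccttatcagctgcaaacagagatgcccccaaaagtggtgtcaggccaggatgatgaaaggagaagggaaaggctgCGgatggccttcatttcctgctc
SYCE3 promoter: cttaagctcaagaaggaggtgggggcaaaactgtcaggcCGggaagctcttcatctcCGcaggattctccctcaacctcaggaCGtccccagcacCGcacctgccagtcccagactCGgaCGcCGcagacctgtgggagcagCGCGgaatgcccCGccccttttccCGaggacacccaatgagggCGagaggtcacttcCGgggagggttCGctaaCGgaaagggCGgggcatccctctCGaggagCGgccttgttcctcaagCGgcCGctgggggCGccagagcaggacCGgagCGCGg
KCNH6 promoter: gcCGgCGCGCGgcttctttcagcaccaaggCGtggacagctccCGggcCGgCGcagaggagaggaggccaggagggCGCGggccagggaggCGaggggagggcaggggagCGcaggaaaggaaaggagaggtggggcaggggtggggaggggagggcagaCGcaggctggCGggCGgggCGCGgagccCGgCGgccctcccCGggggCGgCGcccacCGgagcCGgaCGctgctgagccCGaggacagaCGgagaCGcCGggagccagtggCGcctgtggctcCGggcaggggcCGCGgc
TSLP promoter: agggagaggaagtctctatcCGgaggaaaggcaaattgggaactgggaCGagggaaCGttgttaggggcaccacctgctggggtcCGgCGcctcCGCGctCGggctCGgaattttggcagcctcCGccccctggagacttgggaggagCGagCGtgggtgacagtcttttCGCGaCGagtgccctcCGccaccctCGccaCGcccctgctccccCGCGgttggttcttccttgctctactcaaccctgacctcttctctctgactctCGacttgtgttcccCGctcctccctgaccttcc
KCNMB1 promoter: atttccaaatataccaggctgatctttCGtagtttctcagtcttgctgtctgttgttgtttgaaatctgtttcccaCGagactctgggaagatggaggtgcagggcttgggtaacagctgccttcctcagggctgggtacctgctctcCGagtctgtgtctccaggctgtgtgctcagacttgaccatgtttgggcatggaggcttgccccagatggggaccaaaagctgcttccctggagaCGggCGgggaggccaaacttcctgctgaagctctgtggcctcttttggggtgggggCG
The number of CG ran from 2 to 35 in the gained and from 6 to 33 in the lost of these 6 windows.

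Developmental regulators that carry the mark in most differentiated cells mostly met neither rule. Of the 39 HOX genes, 33 were covered in all 4 libraries and none was gained or lost. Only 3 of the 33 had room for a gain of 10 points, so their count says little about gains, while 32 had enough cover in control to be lost. Over the HOX gene bodies the covered share of bases was 78.1% and 76.2% for control, 74.9% and 78.0% for succinate, so the treatments overlapped. All 9 PAX genes were covered, with 62.7% and 60.2% of their bases in control and 63.6% and 61.5% in succinate, and none met a rule. Of these, 6 had room for a gain. At equal covered length 2 of the 9 were lost. None of 12 covered neurogenic bHLH genes, 6 SOX genes, 7 T-box genes or 4 GATA factors was gained or lost, but only 2, 3, 3 and 2 of them had room for a gain. GATA3 and GATA5 were covered over their whole length in all 4 libraries, and the other covered GATA factors, GATA4 and GATA6, only in part. GATA4 had cover in all 4 libraries, lowest in control replicate 1 (9.79%) and highest in succinate replicate 2 (27.7%). GATA6 had 10.5% in control replicate 1, 14.8% in succinate replicate 2 and none in the other libraries. Of 71 covered genes on the list of homeobox genes outside the HOX clusters, 3 were gained and 1 was lost. The lost gene, HAND2, is not a homeobox gene. The median difference over the list was 0. The gained share was 4.23% of all covered and 10.3% of the 29 with room, beside 12.3% and 17.5% over all gene bodies. BARHL1 and NKX1-1, transcription factors of the developing nervous system, went from none to their whole length, LHX4, a LIM-homeobox factor of pituitary development, from 36.3% and 39.8% to 67.6% and 76.0%, and HAND2, a bHLH factor of heart and limb development kept on this list, from 78.5% and 100% to none. LHX4 stayed gained in each of the 6 other ways of choosing peaks, BARHL1 in 5 and NKX1-1 in 2. HAND2 stayed lost in 3, and its difference was 0 when peaks were ranked by highest signal. In the full list of control replicate 1 both BARHL1 and NKX1-1 were covered over 100%, and in that of control replicate 2 neither was covered. Among 21 covered forkhead genes, of which 6 had room, FOXL3 and FOXD2 were gained, and none was lost. The gained share was 9.52% of those covered and 33.3% of those with room, beside 12.3% and 17.5%. FOXL3 went from none to its whole length, and FOXD2 from 20.8% and 81.8% to 100% in both succinate libraries. The full list of control replicate 1 covered 16.4% of FOXL3.

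Potassium channel and neurotransmitter receptor genes had a smaller gained share and a larger lost share than all covered gene bodies, on small counts that moved with the peaks chosen. Of 45 covered potassium channel genes, 4 were gained (8.89%) and 3 lost (6.67%), beside 12.3% and 1.39% of all covered gene bodies. KCNH4, of the same channel family as KCNH6, went from none to 66.4% and 56.1%, while KCNH6, KCNMB1 and KCNIP1 were the 3 lost, the last 2 at a single locus. KCNH4 stayed gained in 4 of the 6 other ways of choosing peaks. Weaker peaks in the full list of control replicate 1 brought its cover there to 50.7%. Of 34 covered neurotransmitter receptor genes, GRIN3B, an NMDA receptor subunit, was gained (2.94%), from none to 88.7% and 94.5%. It stayed gained in 1 of the 6 other ways only, and its difference was 0 with 2765 peaks and at equal covered length. Lost receptor genes numbered 2 (5.88%). Of those covered enough in control to be lost, 8.57% of the channel and 8.33% of the receptor genes were lost, beside 2.38% of all. Of those with room, 14.3% and 4.76% were gained, beside 17.5%. At a common floor 7 of 44 covered channel genes were gained and 1 lost, and 7 of 31 receptor genes gained and 1 lost. Equal covered length gave 4 gained and 5 lost of 44 channel genes, and 0 gained and 4 lost of 33 receptor genes. ADRA2A, the alpha-2A adrenergic receptor, was lost from 100% to none, and HTR3C, a serotonin receptor subunit, from 100% in both control libraries to 67.2% and 37.0%. ADRA2A stayed lost in each of the 6 other ways. The mean difference of HTR3C changed sign when peaks were ranked by their highest signal (18.5 percentage points), at a common floor and with equal numbers within each chromosome. None of 22 covered clustered protocadherin genes on chromosome 5 was gained or lost, but with only 2765 peaks per library 15 of them were lost. These neighbouring genes share much of their sequence span and are not independent. Of 21 covered genes of WNT signalling, WNT9B was gained (4.76%), from 28.6% and 56% to 79.2% and 86.5%. Of 32 covered keratin genes, of which 7 had room, only KRT5, a keratin of basal epithelia, was gained (3.13%), from 31.8% and 31.2% to 97.8% and 100%. Of 23 covered ZNF genes only ZNF683 was gained (4.35%), and of 8 covered olfactory receptor genes OR51D1 and OR51E1, which are neighbours (25%, or 50% of the 4 with room). These 3 kept the call in 2, 2 and 1 of the 6 other ways.

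Imprinted genes gave 4 gained of 11 covered and none lost, a share of 36.4% beside 12.3% for all covered gene bodies. All 11 had room for a gain, so the share of those with room is also 36.4%, beside 17.5%. The median difference was 7.36 percentage points, beside 2.29. CDKN1C, an inhibitor of cyclin-dependent kinases, was at 12.5% and 0% under control conditions and at 100% with succinate in both replicates (limma adjusted p = 0.022). RTL1 had 27.8% and 24.1% in control and 100% and 92.1% in succinate (limma adjusted p = 0.023). DLK1, in the same imprinted domain of chromosome 14, had 0% and 24.2% against 58.0% and 72.3% (limma adjusted p = 0.23), and TP73 had none against 13.1% and 12%. With its full list, control replicate 1 covered 10.8% of TP73. CDKN1C, RTL1 and DLK1 stayed gained in each of the 6 other ways of choosing peaks, TP73 in 1. With 11 members and neighbours among them, the share is a description only.

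**Figure D2:**
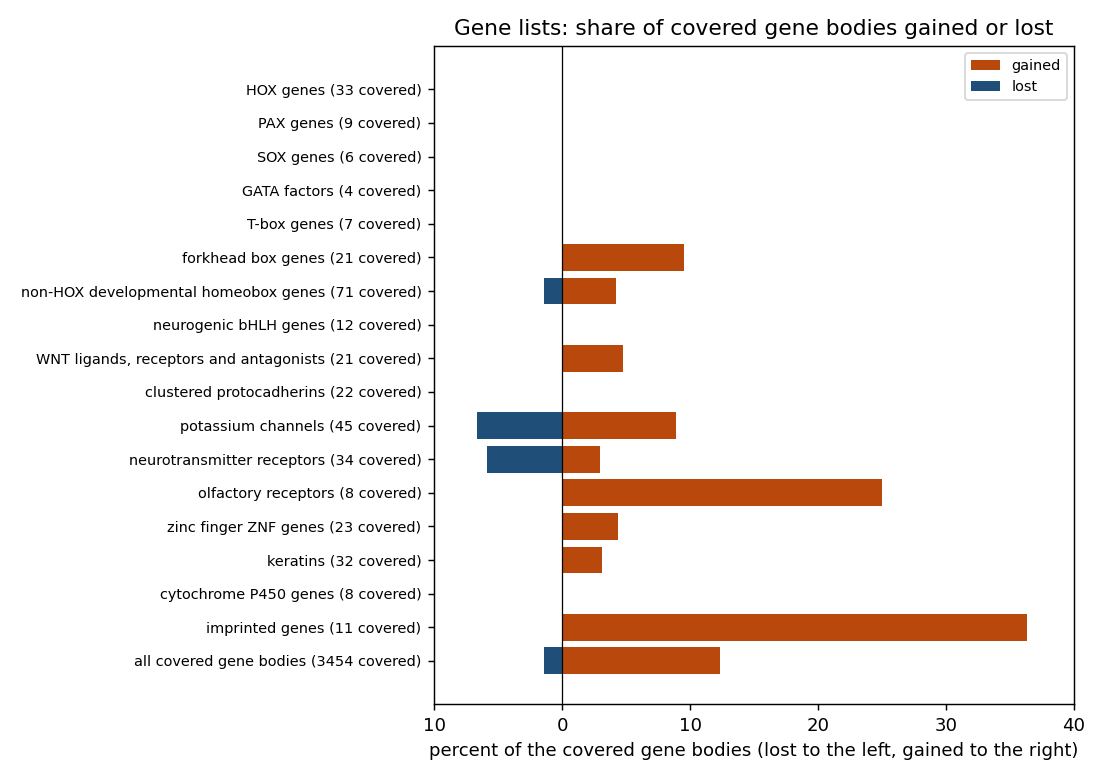
Share of the covered gene bodies of each list that were gained (right) or lost (left), in percent, with the number covered in brackets. HOX, PAX, SOX, GATA, T-box and neurogenic bHLH genes have no bar (3 of the 33 HOX gene bodies had room for a gain of 10 points), imprinted genes reach 36.4%, and all covered gene bodies together stand at 12.3% gained and 1.39% lost.

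Among the 5531 strongest peaks, none lay over the genes listed for hepatocyte identity or housekeeping. None of 13 hepatocyte markers, 28 plasma protein genes or 15 housekeeping genes had cover in any of the 4 libraries, and of 55 cytochrome P450 genes 8 were covered, with none gained or lost. With all peaks of each list 1 plasma protein gene and 17 cytochrome P450 genes were covered, and still no hepatocyte marker or housekeeping gene. Of the markers of other lineages, 2 of 5 for neurons, 2 of 3 for muscle and 2 of 3 for blood were covered in any library. NEUROD1, SYT4, STMN2, MYF5 and PTPRC had no cover among the peaks taken. MYOD1 and MYOG of muscle and GRIN1 of neurons were covered over more than 90% in all 4 libraries and NEUROG1 in control replicate 1 alone. The 2 covered blood markers, CD3E, a chain of the T cell receptor complex, and SPI1, a myeloid transcription factor, were gained. Of all covered gene bodies 12.3% were gained, and 17.5% of those with room, so 2 genes are a description only. CD3E was at 46.6% and 17% under control conditions and at 100% with succinate in both replicates (limma adjusted p = 0.17). Among the peaks taken SPI1 had none in control and 68.0% and 37.5% in succinate (limma adjusted p = 0.26). Peaks of the full list of control replicate 1 covered 60.9% of SPI1, and those of control replicate 2 none. CD3E stayed gained in each of the 6 other ways of choosing peaks and SPI1 in 3. Peak lists hold no RNA, so these values describe the mark and not expression.

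The genes of the enzymes in question were nearly free of peaks. Of 17 genes for PRC2 subunits and H3K27 demethylases, PHF19, an accessory subunit of PRC2, was the only gene covered, with 13.2% in succinate replicate 2 alone. Weaker peaks in the full list of control replicate 1 covered 18.4% of PHF19. None of 17 other Jumonji demethylase genes was covered. Of 28 genes of succinate metabolism and transport, SLC13A2 alone was covered. This gene encodes a sodium-coupled carrier that takes up succinate and citrate (chromosome 17, 28473644 to 28497781). It was gained, from 30.7% and 32.4% in control to 57.5% and 65.6% in succinate (limma adjusted p = 0.095), and no longer so at equal covered length, with 2765 peaks or when peaks were ranked by highest signal. Of 48 SLC25 mitochondrial carrier genes 3 were covered and none was gained or lost.

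The change was then described chromosome by chromosome. Covered length was higher in both succinate libraries than in both control libraries on 21 of 24 chromosomes (87.5%) and lower on 1 (4.17%), chromosome 5. Libraries overlapped on chromosome X, and chromosome Y had no peak in any library. The largest relative gain was on chromosome 19, with 2.55 and 2.34 Mb against 3.67 and 3.96 Mb with succinate, a ratio of means of 1.56. Chromosome 22 had 3.75 and 3.63 Mb against 5.33 and 5.31 Mb (ratio 1.44), chromosome 21 a ratio of 1.43, chromosome 9 of 1.35 and chromosome 17 of 1.32. Replicates differed by far less than the treatments on each of these. As percentage points of chromosome length, the largest increases were 3.21 on chromosome 22, 2.80 on chromosome 17, 2.34 on chromosome 19, 1.5 on chromosome 16 and 1.29 on chromosome 1. On the low side stood chromosome 20 with a ratio of 1.07 and chromosome 4 with 1.09. On chromosome 5 control had 4.91 and 4.83 Mb and succinate 4.23 and 4.19 Mb (ratio 0.864), with 247 and 240 peaks against 184 and 188.

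**Figure D3:**
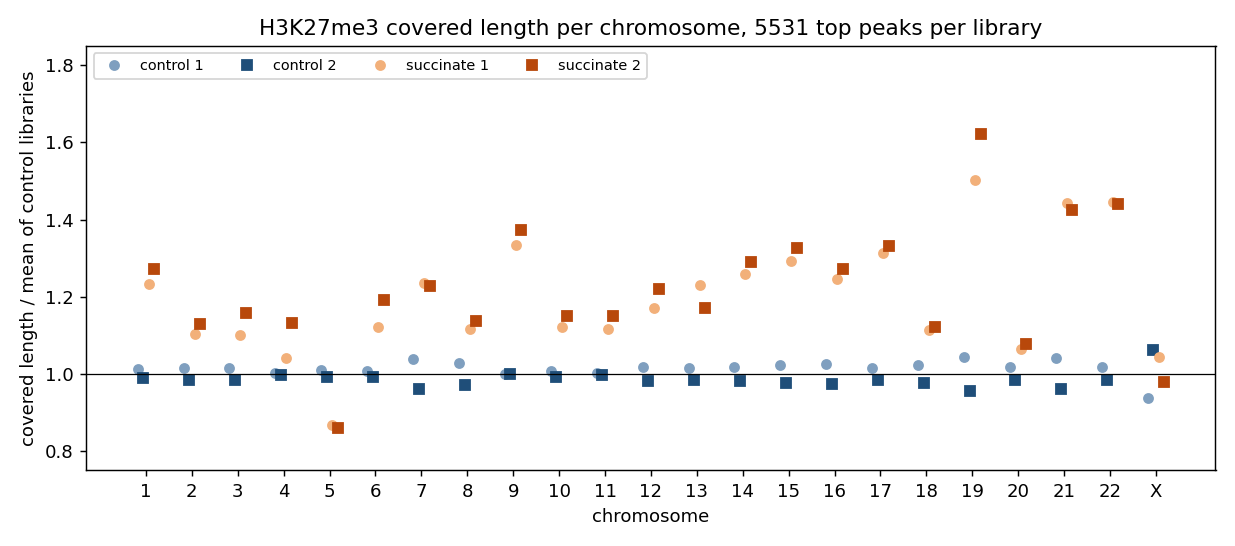
Covered length of each chromosome in each library, divided by the mean of the 2 control libraries, with 1 point per library and chromosome Y left out because no library had a peak there. Both succinate libraries lie above both control libraries on 21 chromosomes, by most on chromosome 19, and below them on chromosome 5.

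At equal covered length, where only the distribution can differ, 9 chromosomes were higher in both succinate libraries (1, 9, 14, 15, 16, 17, 19, 21 and 22) and 12 were lower. Chromosome 5 was lower there too, with 4.81 and 4.83 Mb against 3.37 and 3.22 Mb. With all peaks no chromosome separated the treatments. At a common floor of signal chromosome 5 overlapped, at 3.96 and 3.95 Mb against 3.89 and 4.19 Mb, while 22 other chromosomes were higher. With equal numbers within each chromosome it overlapped too, at 4.19 and 4.29 Mb against 4.23 and 4.15 Mb. That setting by construction removes differences in the number of peaks on a chromosome.

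Gene bodies followed the chromosomes. On chromosome 19, 52 of 214 covered gene bodies were gained (24.3%) and none was lost, on chromosome 22, 25 of 110 (22.7%) and none, and on chromosome 16, 39 of 184 (21.2%) and 1. On chromosome 5, 7 of 151 were gained (4.64%) and 11 lost, which is 11 of the 48 lost gene bodies of the whole set. Gained gene bodies lay in denser surroundings, with a median of 19 other protein-coding genes within 500 kb, against 13 for covered gene bodies that met neither rule and 10 for lost ones. Median lengths were 21.4, 26.3 and 26.3 kb in the same order. Across the 23 chromosomes with peaks, the log2 ratio of each chromosome's share of covered bases (succinate over control) and its density of protein-coding genes had a Pearson r of 0.54 and a Spearman correlation of 0.49. This is a description over chromosomes of the same 4 libraries, which also differ in base composition.

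Windows of 5 Mb showed where on a chromosome the differences lay. Of 471 windows with cover, 206 (43.7%) were higher in both succinate libraries and 82 (17.4%) lower. On chromosome 22 all 8 windows were higher, on chromosome 19, 10 of 11, and on chromosome 17, 14 of 17, with none lower on these 3. The largest gap upward lay on chromosome 9 from 130000001 to 135000000, with 1220 and 1235 kb covered in control and 1657 and 1658 kb in succinate. On chromosome 5, 15 of 30 windows were lower and 2 higher. The largest losses there were in its long arm, from 170000001 to 175000000, with 692 and 696 kb in control against 579 and 604 kb in succinate, and from 150000001 to 155000000, with 480 and 452 kb against 374 and 361 kb. The largest loss of all was on chromosome 20 from 20000001 to 25000000, with 582 and 557 kb against 381 and 435 kb, in a chromosome with 7 of 13 windows higher and 3 lower.

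**Figure D4:**
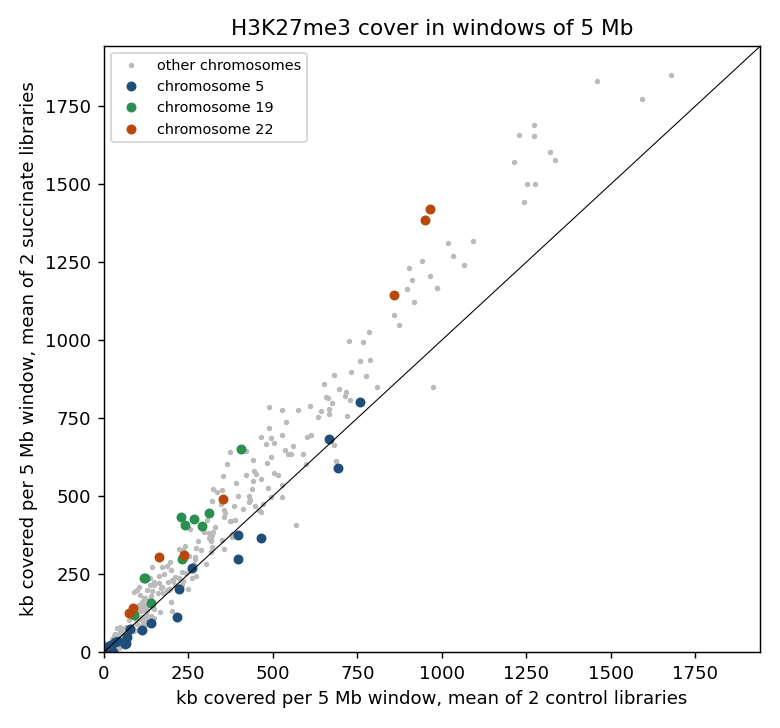
Kilobases under H3K27me3 peaks in each 5 Mb window, as the mean of the 2 control libraries (x axis) and of the 2 succinate libraries (y axis), with the line of equal values. All 8 windows of chromosome 22 lie above the line, while 15 of the 30 windows of chromosome 5 are lower in both succinate libraries.

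The Ksu libraries, made with another antibody from cells given the same treatments, were read for the same chromosomes with 76702 top peaks each, the number in the shortest Ksu list. Chromosome 5 held 8.22% and 8.18% of the bases under Ksu peaks in control and 4.43% and 4.87% in succinate. Its share of H3K27me3 bases was 4.18% and 4.23% against 3.1% and 3.0%. Chromosome 22 held 0.244% and 0.325% of Ksu bases in control and 0.924% and 1.03% in succinate, chromosome 19 held 0.434% and 0.456% against 1.16% and 1.24%, and chromosome 17 held 1.53% and 1.251% against 3.26% in both. The 2 antibodies thus shifted the same way on these 4 chromosomes, without overlap between treatments in either. Not all chromosomes did so. Chromosomes 9 and 21 had H3K27me3 share ratios of 1.14 and 1.21 and Ksu share ratios of 0.972 and 1.13. On chromosome 20 the ratios were 0.90 for H3K27me3 and 1.33 for Ksu. The Ksu shares of chromosomes 9, 20 and 21 overlapped between treatments. Over the 23 chromosomes the log2 share ratios of the antibodies had a Pearson r of 0.77 and a Spearman correlation of 0.70, and that of Ksu with gene density 0.68 and 0.70. Chromosomes of a library share its depth and composition, so these are descriptions. HepG2 cells carry an abnormal set of chromosomes. The number of copies in each culture was not measured here, and the part of copy number or of base composition of the libraries in these results was not tested.

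**Figure D5:**
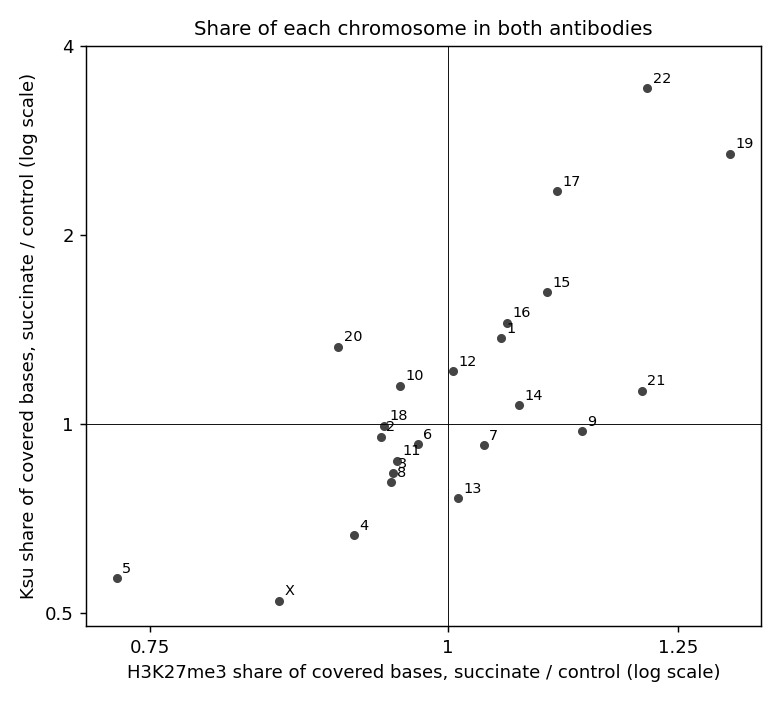
Share of each chromosome in all covered bases, succinate over control, for H3K27me3 (x axis) and Ksu (y axis), both on log scales, with 1 point per chromosome. Chromosomes 17, 19 and 22 lie at the upper right and chromosome 5 at the lower left.

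Ksu cover also differed between the classes of gene bodies. Gained gene bodies had 1.62% and 0.740% of their bases under Ksu peaks in control and 3.34% and 3.07% in succinate, a ratio of means of 2.71. Covered gene bodies that met neither rule had 3.68% and 2.00% against 4.35% and 3.81% (ratio 1.44), and lost gene bodies 6.26% and 3.19% against 4.02% and 3.70% (ratio 0.816), where the treatments overlapped. Among gene bodies that met neither rule, those on chromosome 5 had a Ksu ratio of 0.696 and those elsewhere 1.49, so the chromosome moves with this measure as well. The lost gene bodies outside chromosome 5 had a ratio of 1.13.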

How the data were processed

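The authors deposited SEACR peak lists in stringent mode on build hg38, per the submitters' processing notes and the deposited lists. Columns 4 and 5 of the deposited lists hold the total and the highest signal of each peak. Aligner, scaling, control track and threshold are not given in the sources used here. Each library's signal is a whole multiple of its own step (within 0.02 for 100% of peaks), so unscaled heights were not compared between libraries. The common floor kept peaks of at least 330250 steps in each library. It treats a step as equal in all libraries, which was not tested, and read depth is unknown.

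Per library the 5531 peaks of highest total signal on chromosomes 1 to 22, X and Y were used. Covered bases were counted per protein-coding gene body (RefSeq, GRCh38.p14), promoter window, chromosome and 5 Mb window. Chromosome length was the last end of any gene or peak. limma 3.58.1 (R 4.3.3, trend and robust options, Benjamini-Hochberg adjustment) was fitted to percent covered, over gene bodies with at least 1% in any library and not equal in all 4, and was tested on simulated data. Named genes are the 12 gained and 8 lost with the largest gap in covered bases and the 5 of each with the largest gap in percent (length at least 5 kb), at most 1 within 100 kb, plus up to 4 per gene list. Members and lists were chosen with earlier results of these data known. The windows, the Ksu comparison and the promoter composition were added after the data were seen. The 4 IgG samples were left out, and values are without an antibody background. Of the named genes, 1 is not reported here.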

Additional observations from a re-analysis of the deposited data

Results flagged for a closer look

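Peaks on sequences outside the 24 chromosomes entered no comparison, and 33 of them were listed over the 4 H3K27me3 libraries, above the 3 that a count of 0 allows. Control libraries had 16 and 5 of them, succinate libraries 8 and 4, and their cause was not tested.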

How the results depend on the processing

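Of 104 alternative values of the 9 summary results, 44 stayed within 1.5 times the value reported; the cause of the others was not tested beyond what a setting does by construction. A common floor and equal numbers within each chromosome were chosen after seeing the data. Equal numbers within each chromosome moved no summary result (373 gene bodies gained, 38 lost). Chromosome 5 was then no longer lower, and it held 5 lost gene bodies in place of 11.

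All peaks gave 227 gene bodies gained, 7.08 Mb gained, 80 promoters gained, 0 chromosomes with more covered length, and by limma 0 higher and 0 lower (unadjusted p under 0.05 in 115 and 29). Equal covered length gave 238 gene bodies gained and 178 lost, 9 chromosomes, 7.09 Mb gained and 7.98 Mb lost, 107 promoters gained and 182 lost, and by limma 79 higher and 90 lower. A common floor gave 13 gene bodies lost, 19.2 Mb gained and 0.884 Mb lost, 349 promoters gained and 7 lost, and by limma 315 higher and 8 lower. Of the gene bodies gained, 203 of 227, 225 of 238 and 346 of 612 under these 3 settings were among the 425. A gap of 25 points left 224 gained and 21 lost. limma called 82 higher and 3 lower with ranking by highest signal, 52 lower with 2765 peaks and 37 lower on the log2 scale.

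Leaving out each replicate, which leaves fewer libraries to clear, gave 618 to 772 gene bodies gained and 115 to 152 lost, 21.2 to 25.6 Mb gained and 5.81 to 8.41 Mb lost, 283 to 389 promoters gained and 62 to 111 lost, 21 to 22 chromosomes, and by limma 361 to 567 higher and 61 to 158 lower. A lone library is assumed there to vary like the other treatment. With the replicate block limma called 0 higher and 0 lower (unadjusted 309 and 51). Over the covered gene bodies, deviations of same-numbered libraries had a correlation of 0.081. The labels do not say whether same-numbered libraries were handled together, and a shared batch was not tested.

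Of 540 values for 54 named genes, 422 kept their call, 89 kept only their direction, 26 had a difference of 0 and 3 changed sign, all of HTR3C: 18.5 points (highest signal), 52.1 (common floor) and 2.08 (equal numbers within each chromosome). The log2 ratio of covered length changed sign with all peaks and with equal covered length on chromosome 2 (-0.075, -0.077), 3 (-0.15, -0.20), 4 (-0.24, -0.14), 6 (-0.12, -0.082), 7 (-0.028, -0.0063), 8 (-0.13, -0.062), 10 (-0.059, -0.074), 11 (-0.026, -0.063), 12 (-0.018, -0.0043), 13 (-0.26, -0.25), 18 (-0.21, -0.17) and 20 (-0.062, -0.080). On chromosome 5 it became 0.030 at a common floor. Read depth is unknown, so it could not be told whether weaker peaks were absent or below a threshold.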

Other observations

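Gained gene bodies were grouped by position, without the same grouping of all covered gene bodies for comparison. The 425 fell into 341 loci when gene bodies within 100 kb were joined, and 277 loci held a single gene. Only 5 loci held 4 or more. The LY6G6 genes of the major histocompatibility complex on chromosome 6 (31706866 to 31726714) gave 5 overlapping or adjacent gene bodies with MPIG6B. A locus on chromosome 9 (136658856 to 136764518) held EGFL7, a secreted protein of endothelium, AGPAT2, an enzyme of triglyceride and phospholipid synthesis, and 3 others. On chromosome 19, SHANK1 was joined by SPIB, MYBPC2 and LRRC4B (50418938 to 50719802). The 48 lost gene bodies fell into 46 loci.

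The stretches of gained bases were mostly short, with a median of 986 bp over 3923 stretches, and 415 reached 10 kb. After that at CPNE7, the longest lay in FHAD1 (30.9 kb), XYLT1 (30.1 kb), which encodes a xylosyltransferase of proteoglycan synthesis, and AJAP1 (28.6 kb). The 843 lost stretches had a median of 599 bp, and 202 reached 5 kb. Next after KCNH6 came ANKRD33B on chromosome 5 (19.8 kb).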
